A study of Mus musculus with 7 samples.

Results

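DNA damage repair genes were followed in cancer-associated fibroblasts (CAFs) sorted from pancreatic tumors whose cancer cells carried a control hairpin or one that silences Brca2. The genes were chosen by name, as 50 listed members of homologous recombination, the Fanconi anemia pathway, checkpoint signaling, end joining, base excision repair and mismatch repair. Of the 50, 45 were in the count table, which lists 12771 genes. H2afx was found under its current symbol H2ax, and Palb2, Rad51c, Rad51d, Exo1 and Brip1 were not analysed here. Tumors were grown in the pancreas of C57BL/6 mice (C57BL/6 J males, 8 weeks old, by the study's methods), and CAFs were taken 2 to 3 weeks after injection. The injected KPC cells, a mouse pancreatic cancer line, carried a lentiviral hairpin against Brca2 (shBrca2, 4 libraries, replicates 1 to 4) or a non-targeting hairpin (shControl, 3 libraries, replicates 1, 2 and 4). Both lines had been selected with puromycin. The sort kept live cells that stained for podoplanin and not for CD45, CD31 or EpCAM. The hairpin was given to the cancer cells and not to the host's fibroblasts. Epithelial or cancer cell transcripts were also counted in the sorted libraries, as given with the marker values.

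A broken chromosome can be mended by copying the sister chromatid, which is homologous recombination, or by joining the ends directly. Recombination needs a replicated sister, and many of its genes are transcribed mainly in cells that are replicating their DNA, under the control of E2F factors. Brca2 acts on resected single strands in recombination, Fanconi proteins unhook crosslinks between strands, and the kinases Atm and Atr halt the cell cycle while repair proceeds. Fibroblasts in tissue divide rarely, so in them the level of such genes can also depend on how many cells are cycling. That number was not measured in these CAFs.

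To describe these genes by sequence, promoter windows from RefSeq (GRCm38.p6, the build also known as mm10, 250 bases before to 50 after each start) were searched on both strands for E2F-type words. The first such word was TTCCCGC, the second word was TTCGCGC, the third word was TTGCCGC, and the last word was TTGGCGC. Of the 45 genes, 38 had a window, and 22 of these (57.9%) held a word, against 19.1% of the 10086 count-table genes with a window. The share was 10 of 13 (76.9%) for the genes whose transcripts are described in textbooks as rising in S phase or G2, called cycle-linked from here on, and 12 of 25 (48%) for the remaining ones. The word CCAAT stood in 22 of 38 windows (57.9%), against 42.4% of count-table genes, and the words TTTGAA or TTCGAA, of the type found in promoters of mitotic genes, in 5 of 38 (13.2%), against 16%. The last of the E2F-type words can share letters with CCAAT on the other strand, and such windows count for both. A match is a description of the letters and not a measured binding site. The 10 cycle-linked windows with an E2F-type word are printed here, since the results turn on this set. Each sequence is 30 bases long and reads 5′ to 3′ along the gene's strand, with the word, or its reverse complement, in capitals.
Brca2, chr5:150522442-150522471, plus strand: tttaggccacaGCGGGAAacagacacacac
Bard1, chr1:71103162-71103191, minus strand: cgccgctcagtTTCCCGCtcaggaagtttg
Blm, chr7:80535122-80535151, minus strand: aatcatccttcTTGCCGCgcagagcgtgcg
Brca1, chr11:101551916-101551945, minus strand: gctagcgctagGCGCCAAgcggccggtttc
Chek1, chr9:36726609-36726638, minus strand: cagcatgacgcaagcaggttttgGCGGGAA
Fancb, chrX:164980409-164980438, plus strand: ccggggtagagGCGGGAAtaagtgctctgc
Fanci, chr7:79392345-79392374, plus strand: cgtggagtagaGCGGGAAttttggaaggat
Msh6, chr17:87975055-87975084, plus strand: tcctcccgactTTCCCGCcagcggcggccg
Polq, chr16:37011785-37011814, plus strand: tgaagatggagGCGGGAAgatggaggcggt
Rpa2, chr4:132768312-132768341, plus strand: gctgtcccttcGCGGGAAggagtttgtggc

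Relative to the 1 start that the promoter table uses for each gene, the Brca2 word began 168 bases before it, and those of Bard1, Blm, Fancb and Rpa2 began 208, 142, 172 and 37 bases before it. In Brca1, Chek1, Fanci, Msh6 and Polq the word began 21, 43, 18, 16 and 10 bases after that start. Some genes also have a start further upstream in RefSeq. Counted from the outermost start of the annotated gene, the words of Brca2 and Blm lie 156 and 8 bases inside the gene, and those of Bard1, Fancb and Rpa2 lie 39, 60 and 37 bases before it.

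The libraries held 1898679 to 5990579 counts in all, and the 45 repair genes took 0.0543% to 0.0698% of them, or 1224 to 3483 counts per library. Raw counts of single repair genes ran from 0, for Fancb in shBrca2 replicate 3, the shallowest library, to 672 for H2ax. Every other repair gene had a count in every library. Their median mean normalized count was 28.1, against 56.4 over all genes of the table, where normalized counts are counts divided by the library's size factor. Counts were not divided by gene length, since the libraries read the 3′ end. Summed normalized counts of 9 fibroblast markers were 74950 to 80650 in shControl and 63540 to 68390 in shBrca2 libraries, so the sums were apart. Dcn, with mean counts of 20580 in shControl and 12090 in shBrca2 libraries, and Lum were called lower. The groups overlapped for both, as shControl replicate 2, at 11240 for Dcn and 301.1 for Lum, stood inside the shBrca2 range. None of the other markers was called. Pdpn lay at -0.25 on the log2 scale, with every shBrca2 value below every shControl value. Pdgfra, Pdgfrb, Col1a1, Col1a2, Thy1 and Fap lay between -0.09 and 0.05. The gap between the sums was therefore not read as a change of fibroblast markers as a whole. No epithelial, immune or endothelial list was at 0, although Epcam and Ptprc themselves were not analysed here.

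None of the 45 repair genes was called between shBrca2 and shControl CAFs. A call needed an adjusted p under 0.1 in DESeq2's likelihood ratio test, an absolute log2 fold change over 0.5 and a mean normalized count over 5. Chek1, Polq and Fancb, with mean counts of 3.77, 3.94 and 4.44 over all 7 libraries, missed the minimum count. Their adjusted p was also over 0.1. By the same rule 9.04% of the 12768 genes tested were called (3.77% higher and 5.27% lower in shBrca2), and 8.76% of the 10294 genes whose mean count lay within the range of the repair genes. One repair gene, Polq, had an unadjusted p under 0.05, against 17.7% of all genes, which makes 1 of 45. edgeR's quasi-likelihood test also called 0 repair genes, of the 39 it tested, with 1, Prkdc, at an unadjusted p under 0.05. The adjusted p of the repair genes ran from 0.282 to 0.97. In the plot of mean count against fold change, the repair genes lie inside the cloud of genes that were not called.

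**Figure D1:**
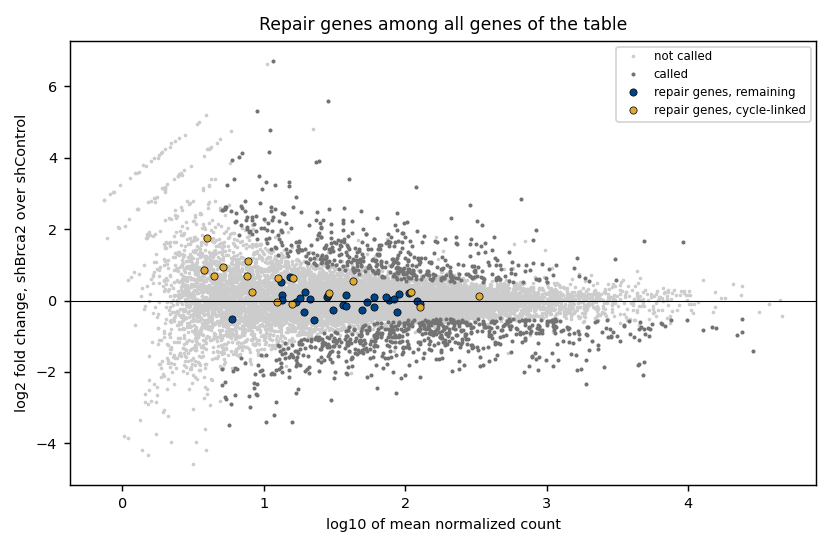
Log2 fold change, shBrca2 over shControl, against the log10 of the mean normalized count for every gene in the table, one point per gene. Light points were not called and dark points were called, and the 45 repair genes, drawn as outlined circles, all lie among the points that were not called.

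These data bound the size of a change unequally from gene to gene. The 95% interval of the log2 fold change covered 0 for 45 of 45 genes. It stayed within a 2-fold change in either direction for 27 of them and within 1.5-fold for 7. All 14 genes with a mean normalized count of 50 or more had an interval within 2-fold, and their fold changes lay between -0.32 and 0.23 on the log2 scale. A change inside a gene's interval is compatible with these data, and for the other 18 genes the interval includes changes over 2-fold. The plot of intervals by role shows the widest bars at Polq, Chek1 and Fancb, each with few counts.

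**Figure D2:**
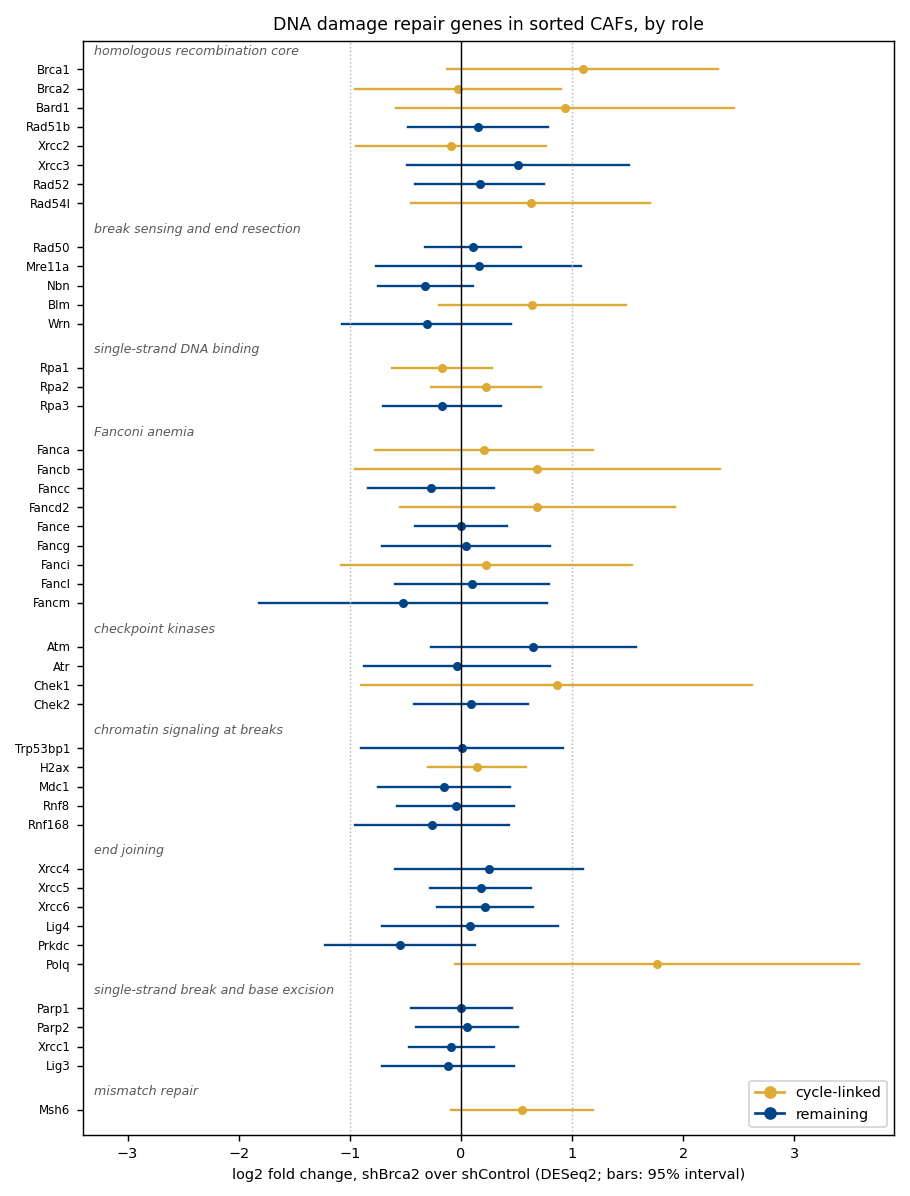
Log2 fold change, shBrca2 over shControl, of the 45 repair genes grouped by role, with points for the DESeq2 estimate and bars for its 95% interval. Every bar crosses 0, and the dotted lines mark a 2-fold change in either direction. Cycle-linked genes are drawn in yellow and the remaining genes in blue.

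The homologous recombination core was read through 8 genes, of which 6 had a fold change above 0, with a median of 0.34 on the log2 scale. For Brca2 itself the shControl libraries gave normalized counts of 10.3, 17.7 and 10.7 (in the order of replicates 1, 2 and 4, as for every gene that follows), and the shBrca2 libraries gave 14.6, 12.2, 8.64 and 13.2 (replicates 1 to 4). These groups overlapped, with the highest value in shControl replicate 2. The log2 fold change of Brca2 was -0.03 (SE 0.47, 95% interval -0.95 to 0.90, DESeq2 adjusted p = 0.97). At this depth the interval still includes changes of nearly 2-fold either way. The hairpin was given to the cancer cells and not to the fibroblasts, so the value was not read as a check of the knockdown. The part of cancer cell RNA in it was not tested. In GENCODE vM39 15.3% of the exon bases of Brca2 overlap another gene, and whether the counting used strand is not given in the sources used here.

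Brca1, which works with Bard1 as a ubiquitin ligase and prepares ends for Brca2, had 3.42, 6.33 and 4.86 normalized counts in shControl and 11.2, 12.8, 8.64 and 7.12 in shBrca2 libraries. Every shBrca2 value was above every shControl value. The log2 fold change of 1.10 (SE 0.62, 95% interval -0.13 to 2.32) did not pass the test (DESeq2 adjusted p = 0.355), and raw counts of the gene were 4 to 22. Bard1 lay at 0.94, with raw counts of 2 to 13 and overlapping groups. Rad54l, a motor protein that assists strand invasion, lay at 0.63. The recombination genes Rad51b, Xrcc2 and Xrcc3 lay at 0.15, -0.09 and 0.51. Rad52, which anneals single strands and has the highest mean count in this role, had 41.0, 25.3 and 38.9 normalized counts in shControl and 37.0, 39.6, 43.2 and 40.7 in shBrca2 libraries. Here the groups overlapped, shControl replicate 2 was low, and the log2 fold change was 0.17 (SE 0.30).

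Break sensing and end resection was read through 5 genes with a median log2 fold change of 0.11. Rad50, Mre11a and Nbn form the complex that first binds a broken end. Nbn had 106.8, 93.6 and 93.4 normalized counts in shControl and 78.3, 76.9, 95 and 67.1 in shBrca2 libraries. Of the shBrca2 libraries, replicate 3 alone reached the shControl values, and the log2 fold change was -0.32 (SE 0.22, DESeq2 adjusted p = 0.482). Its partners Rad50 and Mre11a lay at 0.11 and 0.16, on the other side of 0. Blm, a RecQ helicase that dissolves recombination intermediates, had 12.0, 16.5 and 8.76 normalized counts in shControl and 21.5, 16.9, 17.3 and 20.3 in shBrca2 libraries. The groups did not overlap, by a narrow margin, and the log2 fold change of 0.64 (SE 0.43) did not pass the test (DESeq2 adjusted p = 0.48). Wrn, the related helicase, lay at -0.31.

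The 3 subunits of RPA, the protein that coats exposed single strands, were well counted and differed little. Rpa1 had 111.9, 169.5 and 126.5 normalized counts in shControl and 112.7, 99.7, 127.8 and 144.3 in shBrca2 libraries. The groups overlapped over most of their range, and its log2 fold change was -0.17 (SE 0.23). Rpa2 lay at 0.23 and Rpa3 at -0.17, and all 3 intervals stayed within 2-fold.

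Of the 9 Fanconi anemia genes measured, 7 had a fold change above 0, with a median of 0.10 on the log2 scale. Fance, a subunit of the core complex, had 112.8, 139.2 and 112.8 normalized counts in shControl and 130.8, 97.9, 126.1 and 133.1 in shBrca2 libraries. The groups overlapped over most of their range, and the log2 fold change was 0.00 (SE 0.21, 95% interval -0.41 to 0.41). Fancc, Fancg and Fancl, further core subunits, lay at -0.27, 0.05 and 0.10. The pair that the core complex ubiquitinates, Fancd2 and Fanci, lay at 0.69 and 0.23 with raw counts of 4 to 11 and 2 to 13. Fanca spread widely within shControl, at 8.54, 50.6 and 22.4 normalized counts. Its shBrca2 values of 40.4, 24.5, 20.7 and 36.6 all lay inside that range, and 29.7% of its exon bases overlap another gene. Fancm, a translocase that finds stalled forks, lay at -0.52 and Fancb at 0.69, both with at most 13 counts in any library.

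The checkpoint kinases had log2 fold changes of 0.65 for Atm, -0.03 for Atr, 0.86 for Chek1 and 0.09 for Chek2. Atm and Atr are the kinases that sense breaks and exposed single strands, and Chek2 and Chek1 act after them. Chek2 had 64.9, 67.1 and 42.8 normalized counts in shControl and 58.5, 58.3, 57.0 and 73.2 in shBrca2 libraries. Its groups overlapped, with the lowest value in shControl replicate 4 and the highest in shBrca2 replicate 4. Chek1 had raw counts of 1 to 11, and its interval ran from -0.90 to 2.61. Atm had overlapping groups, at 14.5, 5.06 and 14.6 normalized counts in shControl and 21.5, 19.2, 20.7 and 12.2 in shBrca2 libraries.

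The 5 genes that mark and read chromatin at breaks had a median log2 fold change of -0.05, and all 5 intervals stayed within 2-fold. H2ax, the histone variant that is phosphorylated around a break, had 222.1, 404.8 and 312.3 normalized counts in shControl and 334.8, 391.7, 290.2 and 356.8 in shBrca2 libraries. The shBrca2 values all fell inside the shControl range. The log2 fold change was 0.14 (SE 0.22, 95% interval -0.30 to 0.58), and 24.6% of its exon bases overlap another gene. Mdc1, the scaffold that binds the phosphorylated histone, lay at -0.16, the ubiquitin ligases Rnf8 and Rnf168 at -0.05 and -0.26, and Trp53bp1, which favors end joining, at 0.01.

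End joining held both the highest and the lowest fold change of all 45 genes. Prkdc, the catalytic subunit of DNA-PK, had 29.0, 26.6 and 28.2 normalized counts in shControl and 18.1, 20.4, 17.3 and 20.3 in shBrca2 libraries. The groups were apart, with a narrow spread within each, on raw counts of only 10 to 35. The log2 fold change was -0.54 (SE 0.34, 95% interval -1.22 to 0.13), which did not pass the test (DESeq2 adjusted p = 0.435). Polq, the polymerase of the error-prone end joining route on which recombination-deficient cells depend, had 1.71, 2.53 and 0.97 normalized counts in shControl and 8.61, 5.25, 3.45 and 5.08 in shBrca2 libraries. All shBrca2 values were above the shControl values, but raw counts were 1 to 10. The log2 fold change of 1.76 (SE 0.93, 95% interval -0.05 to 3.58) did not pass the test (DESeq2 adjusted p = 0.282), and the mean count lay under the minimum of 5 that a call needed. Xrcc6 and Xrcc5 encode Ku70 and Ku80, which cap the ends. Xrcc6 had 85.4, 97.4 and 106.0 normalized counts in shControl and 109.3, 97.9, 141.6 and 103.7 in shBrca2 libraries. The groups overlapped, and the log2 fold changes were 0.22 (SE 0.22) for Xrcc6 and 0.18 for Xrcc5. Xrcc4 and Lig4, which seal the ends, lay at 0.25 and 0.08.

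**Figure D3:**
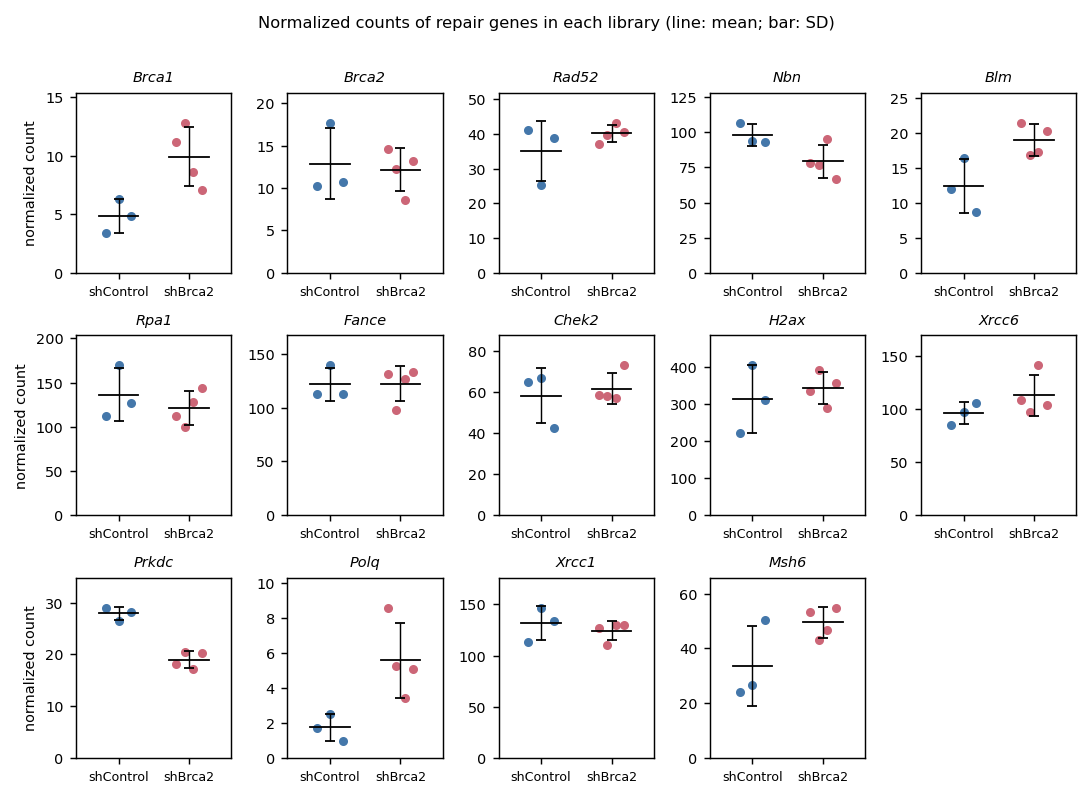
Normalized counts of 14 repair genes in the 3 shControl and 4 shBrca2 libraries, one point per library, on axes that start at 0, with lines for the mean and bars for the SD. The groups are apart for Brca1, Blm, Polq and Prkdc and overlap for the other 10 genes.

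Single-strand break and base excision repair showed the smallest fold changes of any role with more than 1 gene, between -0.11 and 0.05 on the log2 scale. Xrcc1, the scaffold of this route, had 113.6, 146.7 and 134.2 normalized counts in shControl and 126.5, 110.2, 129.5 and 130.1 in shBrca2 libraries. The groups overlapped and the log2 fold change was -0.09 (SE 0.20, 95% interval -0.47 to 0.30). Parp1 and Parp2, the enzymes that PARP inhibitors block in Brca-deficient tumors, lay at 0.00 and 0.05, and Lig3 at -0.11. All 4 intervals stayed within 2-fold. Msh6, the 1 mismatch repair gene listed, takes part in recognizing mismatches. It had 23.9, 26.6 and 50.6 normalized counts in shControl and 53.4, 43.1, 46.6 and 54.9 in shBrca2 libraries. shControl replicate 4 stood among the shBrca2 libraries, away from the other shControl values, and the log2 fold change was 0.55 (SE 0.33, DESeq2 adjusted p = 0.397). With 1 library left out at a time, the log2 fold change of Msh6 ran from 0.34 to 0.98. The lowest value came without shControl replicate 1 and the highest without shControl replicate 4. Msh6 was not called in any of these fits.

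Across the 45 genes, 3 had every shBrca2 value above every shControl value, Brca1, Blm and Polq, against 7.79% of all genes. In the other direction there was 1, Prkdc, against 9.3% of all genes. These counts are no larger a share than the background. The median log2 fold change was 0.10, against 0.01 over all genes, and 30 of 45 genes (66.7%) lay above 0, against 50.9% of all genes.

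The cycle-linked genes and the remaining genes gave different counts. Of the 16 cycle-linked genes measured, 13 had a fold change above 0, with a median of 0.59 on the log2 scale. That median was 0.33 without shControl replicate 1, and it was 0.25 in edgeR and 0.22 with a filter on low counts, which tested the 11 and 10 better counted of the 16. Over those same genes the DESeq2 fit gave 0.23 and 0.22. Of the 29 remaining genes, 17 lay above 0, with a median of 0.01. The cycle-linked genes were also counted less deeply, with a median mean normalized count of 12.5 against 36.2. Their median SE was 0.52 against 0.30, and 5 of 16 intervals stayed within 2-fold, against 22 of 29. Among the 16, the 3 with the highest counts, H2ax, Rpa1 and Rpa2, had fold changes of 0.14, -0.17 and 0.23. The difference between the 2 sets was not tested.

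Cycle-linked genes were set beside cell cycle genes in each library. Each gene's log2(normalized count + 1) was centered on its own average across all 7 libraries, and the centered values were averaged over the set. For the cycle-linked repair genes the shControl libraries stood at -0.58, 0.18 and -0.33, and the shBrca2 libraries at 0.41, 0.20, -0.22 and 0.34. The groups overlapped: shControl replicate 2 stood with the shBrca2 libraries, and shBrca2 replicate 3 with the shControl libraries. The same measure over 22 replication genes was -0.39, 0.18 and -0.43 in shControl and 0.38, 0.26, -0.35 and 0.36 in shBrca2 libraries, and over 21 mitosis genes -0.77, 0.41 and -0.69 in shControl and 0.45, 0.37, -0.20 and 0.44 in shBrca2 libraries. In all 3 sets shControl replicate 1, shControl replicate 4 and shBrca2 replicate 3 were the 3 lowest libraries. The cycle-linked genes were chosen as rising in S phase or G2, so a shared order with cell cycle genes follows from that choice. What sets the order of the libraries was not tested. The remaining repair genes stayed between -0.10 and 0.08 in every library, with means of -0.00 ± 0.05 (SD, n = 3) and 0.00 ± 0.07 (SD, n = 4).

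**Figure D4:**
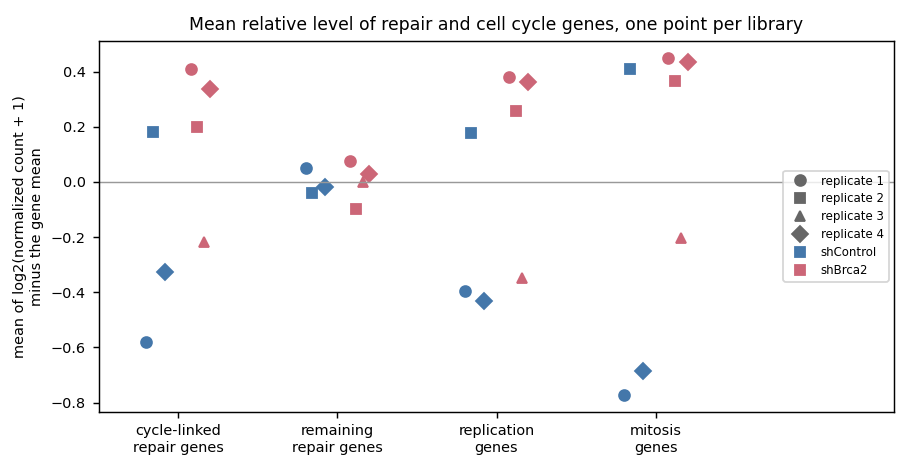
Mean of log2(normalized count + 1) after taking off each gene's mean, for cycle-linked repair genes, remaining repair genes, replication genes and mitosis genes, one point per library, with color for the group and shape for the replicate number. shControl replicates 1 and 4 and shBrca2 replicate 3 are lowest in 3 sets, and the remaining repair genes lie between -0.10 and 0.08.

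In the cell cycle lists most genes also lay above 0. Of 22 replication genes 21 lay above 0, with a median log2 fold change of 0.44, and 1 was called higher, the licensing factor Cdt1 (0.97, SE 0.36, DESeq2 adjusted p = 0.0846). Of 21 mitosis genes 20 lay above 0, with a median of 0.52, and 2 were called higher, cyclin B1 (Ccnb1, 1.003, SE 0.37, DESeq2 adjusted p = 0.0852) and the centromeric histone Cenpa (0.93, SE 0.29, DESeq2 adjusted p = 0.0298). The groups overlapped for Cdt1 and Ccnb1 and were apart for Cenpa. None was called lower in either list. Over all genes 3.77% were called higher. The proliferation marker Mki67 had 41.0, 97.4 and 58.4 normalized counts in shControl and 102.4, 76.9, 96.7 and 97.6 in shBrca2 libraries. shControl replicate 2 stood inside the shBrca2 range, and the log2 fold change of 0.52 (SE 0.30) did not pass the test (DESeq2 adjusted p = 0.367). Top2a, the topoisomerase of dividing cells, lay at 0.50 and was not called.

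Markers of other cells moved with the groups and are given beside these values. In such bulk samples fewer cells of a type and less RNA per cell cannot be told apart. Of 9 epithelial or cancer cell markers, 6 were measured, and 4 were called higher, Krt8, Krt18, Krt19 and Krt7. Their summed normalized counts were 384.4 to 1142 in shControl and 1434 to 2017 in shBrca2 libraries, which did not overlap. The immune sum over 6 of 10 markers was 304.9 to 319.5 in shControl and 399 to 425.5 in shBrca2 libraries, with Csf1r and C1qa called higher and Jchain lower. Of the 6, 3 lay above 0, and without Csf1r, a choice made after seeing the data, the other 5 summed to 155.6 to 227.6 in shControl and 122.6 to 185.4 in shBrca2 libraries, which overlapped. Mesothelial markers, 5 of 6 measured, summed to 810.6 to 2437 and 1959 to 2475, with Krt19, shared with the epithelial list, called higher. Pericyte sums over 6 markers were 368.2 to 442.8 and 365.5 to 513.8, with Notch3 called higher. Endothelial sums over 4 of 6 were 71.8 to 122.6 and 84.6 to 115.3, with none called. Of these 4, Kdr had most of the counts and lay at 0.52. The other 3, Pecam1, Vwf and Tek, had every shBrca2 value below every shControl value, at -3.60, -1.11 and -1.55. Pecam1 passed on p (DESeq2 adjusted p = 0.0311), but its mean count of 3.87 lay under the minimum of 5. The part of these cells in the repair and cell cycle values was not tested.

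Further repair genes were read from a list of 111 outside the 50, of which 106 were measured. One of the 106 was called higher and 0 lower, against 3.77% and 5.27% of all genes, with 8 at an unadjusted p under 0.05, against 17.7% of all genes. In edgeR's test 2 were called higher and 1 lower. The called gene was Rbbp8, also known as CtIP, which starts resection of broken ends together with the Mre11a complex and Brca1. It had 49.5, 54.4 and 68.1 normalized counts in shControl and 117.0, 111.3, 112.3 and 91.5 in shBrca2 libraries. All shBrca2 values were above the shControl values, and the log2 fold change was 0.91 (SE 0.23, 95% interval 0.46 to 1.37, DESeq2 adjusted p = 0.00294). Its rise stands beside log2 fold changes of 0.11, 0.16 and -0.32 for Rad50, Mre11a and Nbn, none of which was called.

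The 106 genes had a median log2 fold change of 0.09, and 6 had groups apart with shBrca2 higher and 5 with shBrca2 lower, against 7.79% and 9.3% of all genes. By pathway, the checkpoint signaling list had 11 of 12 genes above 0, with a median of 0.28. The recombination and Fanconi list had 20 of 31 above 0 (median 0.16), base excision 13 of 17 (median 0.13) and end joining 5 of 9 (median 0.06). Nucleotide excision, a route of quiescent and cycling cells alike, had 9 of 19 above 0 (median -0.06), mismatch repair 3 of 6 (median -0.02), and translesion synthesis and direct reversal 6 of 12 (median -0.01). The plot by pathway shows the medians of the replication and mitosis lists to the right of that of every repair list.

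**Figure D5:**
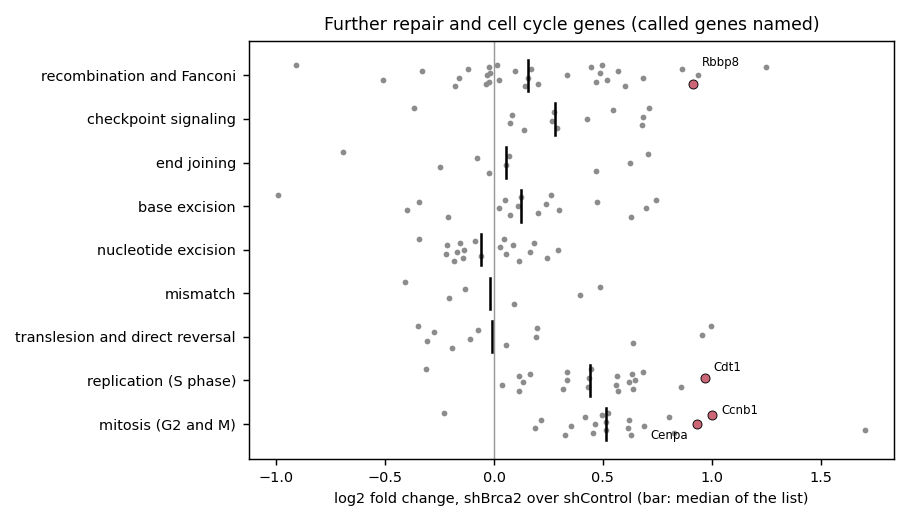
Log2 fold change, shBrca2 over shControl, of 106 further repair genes by pathway and of the replication and mitosis lists, one point per gene, with a bar at the median of each list. Red points were called, which holds for Rbbp8 among the repair genes and for Cdt1, Ccnb1 and Cenpa among the cell cycle genes.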

How the data were processed

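RNA was measured in 7 libraries of sorted CAFs, each from a separate mouse per the study's legend, with a variant of MARS-seq, which reads transcript 3′ ends. The authors deposited raw counts per gene symbol. Their processing notes name bcl2fastq, cutadapt, STAR 2.4.2a, HTSeq, DESeq2 and mm10, while the annotation, strand setting and collapsing of molecular barcodes are not given in the sources used here. Counts may therefore hold PCR copies, and errors cover the spread between libraries.

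Groups came from each sample's silencing label. DESeq2 1.42.0 (R 4.3.3) was fitted to the whole table with median-of-ratios size factors, and its likelihood ratio test of the group term was adjusted by Benjamini-Hochberg over all genes. A gene was called at adjusted p under 0.1, absolute log2 fold change over 0.5 and mean normalized count over 5, as in the study's methods. Fold changes are not shrunken, and 95% intervals come from their SE. 3 genes of the table got no p. Values in every library are given for Brca2, for genes whose groups did not overlap and for the gene with the highest mean count in each role, and others were named after their values were seen. Alternatives were edgeR 4.0.16 with TMM, DESeq2's Wald test, TMM size factors, a filter (10 counts in at least 3 libraries), the replicate number as a block, and each library left out. Members and lists were chosen with earlier results of these data known. Scripts were tested on simulated data. Every pair of libraries differed beyond counting error, since the lowest mean chi-square per gene was 3.01. Shared exon bases were counted in GENCODE vM39.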

Additional observations from a re-analysis of the deposited data

Results flagged for a closer look

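For each of the 45 repair genes the 4 shBrca2 libraries were examined for a value far from the other 3 by Dixon's test, which by chance points to about 1 in 20 groups. Of 45 groups, 3 held such a value. They were Rad51b in shBrca2 replicate 4, at 25.4 normalized counts, Mre11a in shBrca2 replicate 1, at 20.7, and Chek2 in shBrca2 replicate 4, at 73.2. None of the 3 genes was called with or without that library.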

How the results depend on the processing

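No repair gene of the 45 was called in any of the 12 alternatives, of which edgeR tested 39 and the count filter 38. The number called over all genes ran from 491 to 1305. Of the 106 further repair genes, edgeR called 2 higher and 1 lower, the count filter 2 higher, and the fits without 1 library 1 to 3 higher. Replicate numbers did not pair the libraries, as same-numbered deviations correlated at -0.066, -0.098 and -0.095. With the replicate block 491 genes were called in place of 1154, 0 of the further repair genes among them, with Rbbp8 at 0.90 on the log2 scale (DESeq2 adjusted p = 0.193). Brca2 then lay at 0.088, and at -0.18 to 0.24 without 1 library. The median log2 fold change of the cycle-linked genes was 0.25 in edgeR and 0.22 with the count filter, where 11 and 10 of 16 were tested. Over those same genes the median of the reported fit was 0.23 and 0.22. Without 1 library it ran from 0.33 to 0.80, and that of the remaining genes from -0.0457 to 0.1096. These medians were added after seeing the data. Fance lay at -8e-04 in edgeR, at -0.0045 with TMM factors, at -0.0173 with the block and at -0.0513 to 0.1035 without 1 library. Without 1 library Rad52 ran from -0.0044 to 0.2977, Rpa1 from -0.2943 to 0.0132, Chek2 from -0.0943 to 0.1915 and H2ax from -0.0563 to 0.3668. At a median mean count of 28.1, 27 of 45 intervals stayed within 2-fold, and what sets the width of the others was not tested.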

Other observations

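Of the 106 further repair genes, 6 had groups apart with shBrca2 higher, Rbbp8 among them, and 5 with shBrca2 lower. Over all genes the shares were 7.79% and 9.3%. Some of those not called are described here, picked after their values were seen. Mpg and Msh3, higher in shBrca2, and Rad54l2, Top3a and Gtf2h4, lower, also had groups apart and were not called. Parp3, a relative of Parp1 that acts in end joining, had 591.9, 611.0 and 588.5 normalized counts in shControl and 428.6, 464.0, 475.0 and 446.2 in shBrca2 libraries. Its log2 fold change of -0.40 (SE 0.13, DESeq2 adjusted p = 0.0392) passed on p and missed the fold threshold of 0.5. Mutyh, the glycosylase that removes adenine opposite oxidized guanine, had 19.7, 16.5 and 21.4 normalized counts in shControl and 9.47, 11.7, 8.64 and 8.13 in shBrca2 libraries (DESeq2 adjusted p = 0.183), and it is the gene that edgeR called lower. Alkbh2, which reverses alkylated bases, was called higher by edgeR and lay at 0.64 on the log2 scale (DESeq2 adjusted p = 0.106). Rad18, a ubiquitin ligase of stalled forks, lay at 0.99 (DESeq2 adjusted p = 0.147) and Nhej1, an end joining factor, at 0.71 (DESeq2 adjusted p = 0.222), both with every shBrca2 value above the shControl values.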
